A study of Mus musculus with 6 samples.

Results

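Genes of sterol and fatty acid synthesis were followed through mouse endothelial cells with and without the cerebral cavernous malformation gene Pdcd10 (Ccm3). The set was a list of 29 named genes out of 32285 in the count matrices. By role it held 6 genes of the mevalonate arm, 11 genes of squalene and the later sterol steps, 3 regulators, 6 genes of the fatty acid arm and 3 genes of sterol transport. All 29 were found in every library. The list was drawn up with earlier results of these data known.

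The study sorted cells from young mice by flow cytometry and profiled them in 6 single-cell libraries, each of which was its own group. WT mice carried Mfsd2a-CreERT2 alone, and KO mice carried Mfsd2a-CreERT2:Pdcd10fl/fl, so both genotypes held the tamoxifen-inducible Cre driven from Mfsd2a, a lipid transporter gene of brain barrier endothelium. Tamoxifen at postnatal day 1 (P1) preceded harvest at P6 for one WT and one KO library, and harvest at P10 for another of each. The remaining KO libraries were harvested at P9 after tamoxifen with vehicle or with rapamycin, which inhibits the growth-sensing kinase complex mTORC1, and the labels give no tamoxifen day, rapamycin dose or number of animals for them.

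Cholesterol is built from acetyl-CoA through mevalonate to farnesyl diphosphate, then through squalene and lanosterol to cholesterol. The membrane-bound transcription factors encoded by Srebf2 and Srebf1 switch on the genes of this path and of fatty acid synthesis when sterol is scarce, and Insig1 holds them back in the endoplasmic reticulum when sterol is plentiful. Excess sterol leaves the cell through the exporters Abca1 and Abcg1, which are raised by the oxysterol-sensing nuclear receptor LXR. In the brain cholesterol is made locally because the barrier endothelium keeps plasma lipoproteins out, and mTORC1 is a known activator of the factors encoded by Srebf1 and Srebf2.

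The stretch just upstream of a gene's start is where these factors bind, so it is shown for some genes of the set. The windows start 250 bases before the RefSeq start on GRCm38.p6 and are written 5′ to 3′ on the gene's strand. Each ends at the base before the start, except that Insig1 lacks the last 49 bases, which the GENCODE span of the gene covers. Capitals mark matches, on either strand, to 3 motifs. These are the sterol regulatory element core TCACNCCAC, the E-box CACGTG, and CCAAT, the box of the cofactor NF-Y, which on the other strand reads ATTGG. Adjoining CCAAT boxes of opposite strand can share capitals, as in Fasn. Hmgcs1 is shown because it was the 1 gene of the 22 with a window that matched the sterol core. Fasn is shown for its level in KO cells, and Sc5d for its level by age. Insig1 is also shown for its level in KO cells, though the genotype test given below did not call it.

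Hmgcs1, chr13:119690101-119690350, plus strand, upstream of the gene:
Hmgcs1: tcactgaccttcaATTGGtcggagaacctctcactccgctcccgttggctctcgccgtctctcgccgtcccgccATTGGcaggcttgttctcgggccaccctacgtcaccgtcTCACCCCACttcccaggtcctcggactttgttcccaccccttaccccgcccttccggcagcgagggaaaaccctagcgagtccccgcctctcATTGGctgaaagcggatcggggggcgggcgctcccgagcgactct
Insig1, chr5:28071162-28071362, plus strand, upstream of the gene:
Insig1: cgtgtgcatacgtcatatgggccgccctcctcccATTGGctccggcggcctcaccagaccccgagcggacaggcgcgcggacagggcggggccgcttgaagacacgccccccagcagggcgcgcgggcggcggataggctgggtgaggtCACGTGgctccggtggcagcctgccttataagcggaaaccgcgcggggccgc
Fasn, chr11:120824548-120824797, minus strand, upstream of the gene:
Fasn: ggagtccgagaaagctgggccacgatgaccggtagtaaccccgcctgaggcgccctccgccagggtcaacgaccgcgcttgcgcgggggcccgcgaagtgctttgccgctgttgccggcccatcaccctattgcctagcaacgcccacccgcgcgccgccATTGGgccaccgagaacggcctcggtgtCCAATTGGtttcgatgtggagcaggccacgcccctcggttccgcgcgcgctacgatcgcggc
Sc5d, chr9:42264301-42264550, minus strand, upstream of the gene:
Sc5d: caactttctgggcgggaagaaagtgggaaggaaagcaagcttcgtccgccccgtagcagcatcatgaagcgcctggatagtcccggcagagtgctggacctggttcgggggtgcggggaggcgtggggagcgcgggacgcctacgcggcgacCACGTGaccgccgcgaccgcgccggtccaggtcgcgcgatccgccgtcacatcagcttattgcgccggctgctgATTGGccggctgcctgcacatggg

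RefSeq windows were held for 22 of the 29 genes, and Abcg1, Fdft1, Fdps, Scd1, Scd2, Sqle and Stard4 had none in the table. CCAAT matched in 17 of these 22 genes (77.3%), against 37.5% of 27025 genes with a window. Mvk held 5 such matches, Hmgcs1, Hsd17b7, Msmo1 and Fasn held 3 each, and the other matched genes held 1 or 2. The E-box matched in 5 of 22 (22.7%), namely Abca1, Dhcr7, Hsd17b7, Insig1 and Sc5d, against 6.86% of all genes. The sterol core matched in 1 of 22 (4.55%) against 1.22% of all genes. A match describes letters in a window and is no measured binding site, and some genes have several windows.

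Endothelial cells were taken as barcodes with at least 500 genes, at most 10% mitochondrial UMIs, and a UMI (unique molecular identifier, 1 captured transcript end) of at least 3 of the 6 genes Pecam1, Cldn5, Cdh5, Flt1, Esam and Egfl7. They numbered 857 (KO at P6) to 3768 (vehicle), with 9883763 to 36629558 summed UMIs per library. Levels are given as UMIs per 1000000 endothelial UMIs (CPM). Cldn5, the main barrier claudin, measured 4488 to 7613 CPM. The labels name retina and the series title names brain, and 8 retina markers summed to 3.76 to 8.18 CPM in all kept cells. Pdcd10 itself measured 104 and 102 CPM in WT at P6 and P10, 58.4 and 58.2 CPM in KO, 44.9 CPM with vehicle and 80.6 CPM with rapamycin. Transcript ends can be counted outside the floxed part of the gene, so these levels are no full check of the deletion. The vehicle and rapamycin libraries share 420 barcodes, of which 4 in each passed as endothelial, and without shared barcodes no count of members at a fold of 1.5 moved.

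Pericyte markers summed to 243 to 1063 CPM in these endothelial cells, astrocyte markers to 56.2 to 192 CPM and neuron markers to 20.6 to 45.2 CPM. All 8 pericyte and all 8 astrocyte markers were detected in every library, while oligodendrocyte and microglia markers reached at most 38.0 and 83.8 CPM. Red cell genes ran from 104 CPM with vehicle to 15540 CPM in WT at P10, and choroid plexus genes from 4.63 CPM in WT at P6 to 1770 CPM with rapamycin. The share of endothelial cells with at least 2 markers of another type was 30.8%, 26.1%, 22.6%, 15.8%, 7.38% and 18.2% for P6 WT, P6 KO, P10 WT, P10 KO, P9 vehicle and P9 rapamycin in turn. The mitotic share of cells, thinned to 2000 UMIs, was 6.81%, 8.69%, 2.31%, 7.35%, 16.8% and 5.45% in that order. The part of these shares in the results was not tested, and the main counts by genotype and age are also given without those cells. Runs without mitotic cells also left out the 28 to 375 endothelial cells per library under 2000 UMIs.

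In GENCODE vM21 (build GRCm38), Fasn is annotated on chromosome 11 from 120805846 to 120824547 on the minus strand and Abcg1 on chromosome 17 from 31057675 to 31117988 on the plus strand. Scd2 lies on chromosome 19 from 44293674 to 44306864 on the plus strand, and Sc5d on chromosome 9 from 42251595 to 42264256 on the minus strand. All 29 are protein-coding genes whose counts pool all transcripts of the gene.

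Of the 29 genes, 23 reached a mean of 10 CPM over the 6 libraries and are called measured, as did 7804 of all genes. The others were the lanosterol synthase Lss (10 to 33 UMIs per library), Tm7sf2 (63 to 200), Hsd17b7 (32 to 249), Acaca (41 to 325), Fasn (44 to 516) and Scd1 (2 to 91). Counts were made from transcript ends, so they were not divided by gene length, and an order between genes is only descriptive. By mean level Abca1 stood highest at 100.4 CPM, followed by Fdps at 74.9 CPM and the stearoyl-CoA desaturase Scd2 at 71.9 CPM. Scd1, a desaturase of the same family, had a mean of 1.12 CPM. The plot of levels by library shows both groups of genes. Within the squalene arm Ebp had a mean of 51.2 CPM and Lss of 1.03 CPM.

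Over the 6 libraries Hmgcs1 ran from 42.5 to 56.8 CPM, Mvk from 21.6 to 27.9 CPM and Mvd from 11.6 to 22.9 CPM. Of the later sterol enzymes Sqle ran from 12.5 to 23.1 CPM, Cyp51 from 21.9 to 33.8 CPM, Nsdhl from 8.48 to 15 CPM and Dhcr7 from 9.23 to 25.1 CPM. Insig1, the sterol-sensing brake on the pathway, ran from 16.7 to 49.6 CPM. Srebf1 ran from 9.45 to 17.5 CPM, Srebf2 from 21.4 to 30.2 CPM, Acly from 28.2 to 43.4 CPM and Elovl6 from 11.1 to 18.2 CPM. The sterol carrier Stard4 ran from 42.7 to 58.9 CPM and Abca1 from 67.3 to 146 CPM.

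**Figure D1:**
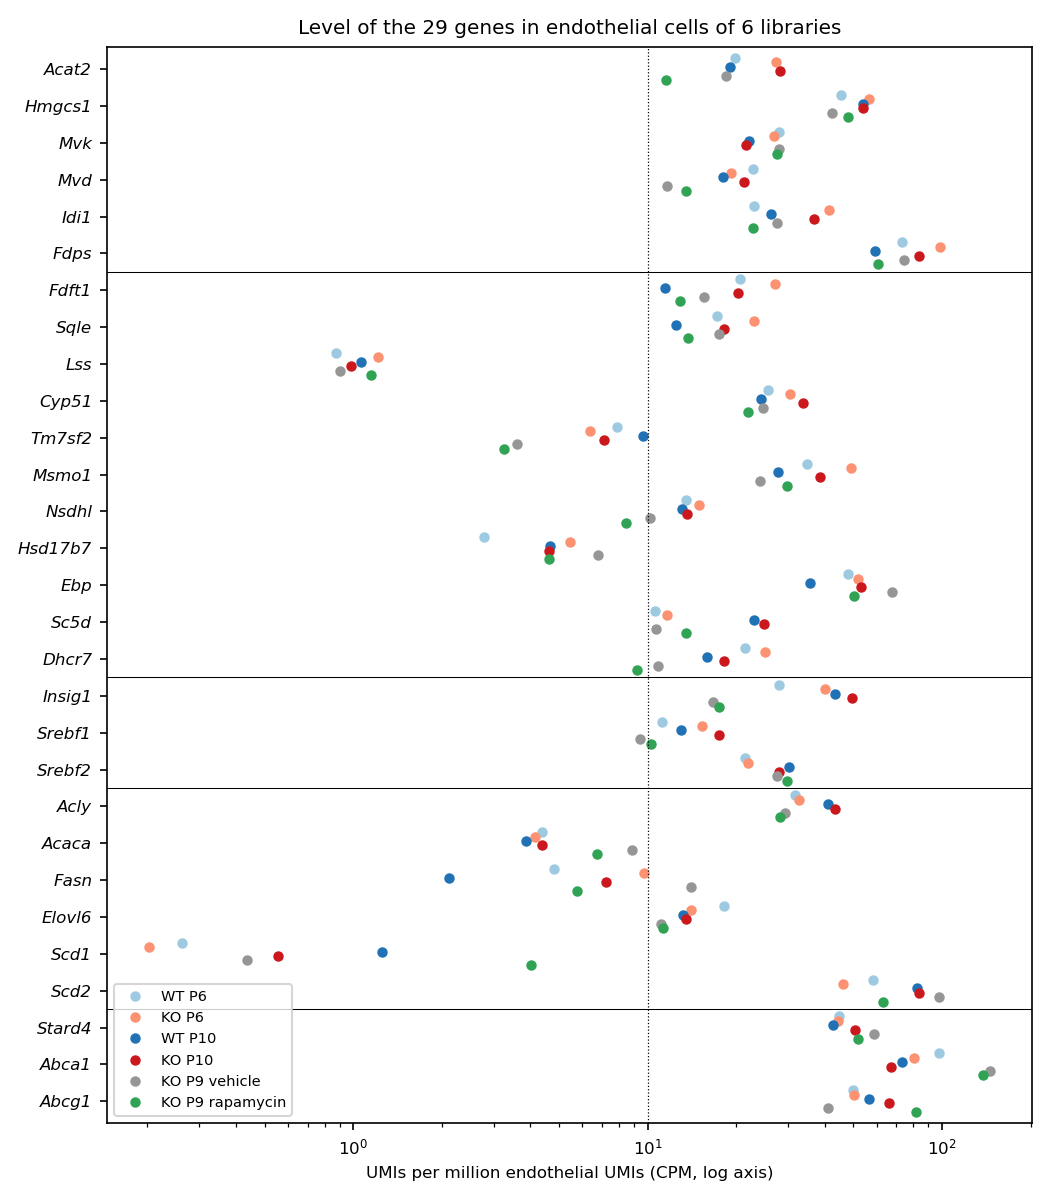
Level of each of the 29 genes in the endothelial cells of the 6 libraries, in UMIs per 1000000 endothelial UMIs (CPM) on a log axis; the dotted line is the 10 CPM minimum and horizontal lines part the roles. Lss lies near 1 CPM, Scd1 spans 0.202 to 4.02 CPM, Abca1 spans 67.3 to 146 CPM, and the KO points of Idi1 at P6 and P10 lie to the right of their WT points.

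The comparison of KO with WT cells asked what differs after deletion of Pdcd10. Fatty acid synthase was higher in KO and passed the test. No gene of the mevalonate arm (0 of 6) or of squalene and the later steps (0 of 11) passed it, and their values are given as measured. In edgeR's quasi-likelihood test over both ages with Benjamini-Hochberg adjustment, Fasn was the 1 member called, at 1.36 on the log2 scale (SE 0.26, adjusted p = 0.0436). Of 28 members tested 1 was higher, against 3.05% of 13165 genes, and 0 were lower, against 1.69%, with 10 members and 3065 genes at an unadjusted p under 0.05. The ages served as repeats, leaving 1 residual degree of freedom for 4 libraries. Each library was its own group. A p-value for genotype or age thus rests on how the difference varied between the pairs and on spread shared over genes. Because the labels tie no library to an animal, the spread behind every p-value here may be technical. In summed cells a shift in the mix of cell subtypes and a shift in RNA per cell cannot be told apart. Fasn, the enzyme that makes palmitate, measured 4.80 (WT) and 9.71 (KO) CPM at P6. At P10 the levels were 2.12 (WT) and 7.21 (KO) CPM. Both KO values lay above both WT values, on 44 to 169 UMIs per library. How many of all genes are parted in this way, by genotype, age or subset, was not counted. The ratios were 2.02 (95% interval 1.44 to 2.87) at P6 and 3.40 (2.43 to 4.85) at P10. All intervals here are exact and cover counting error only. The Fasn call was lost with DESeq2 (adjusted p = 0.0944), with 4 endothelial markers required (edgeR adjusted p = 0.0537), without the age term (edgeR adjusted p = 0.597), and, with no age term, without any 1 of the 4 libraries (edgeR adjusted p = 0.282 to 0.9997).

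In the mevalonate arm 4 of 6 genes had ratios of KO to WT above 1 at each age, against 52.3% of measured genes at P6 and 56% at P10. Idi1, the isomerase that makes dimethylallyl diphosphate, measured 23.0 (WT) and 41.3 (KO) CPM at P6, and 26.3 CPM and 36.7 CPM at P10. Both KO libraries stood above both WT libraries. Its ratio was 1.80 (1.54 to 2.11) at P6 and 1.40 (1.25 to 1.56) at P10 (log2 fold change 0.62, SE 0.14, edgeR adjusted p = 0.0609). Fdps, which makes farnesyl diphosphate, measured 73.2 (WT) and 98.5 (KO) CPM at P6, and 59.1 CPM and 83.8 CPM at P10. Again the KO libraries were the higher ones, with ratios of 1.35 (1.23 to 1.48) and 1.42 (1.32 to 1.52) and an edgeR adjusted p of 0.0690. Acat2, the cytosolic thiolase that starts the path, measured 19.8 and 27.3 CPM at P6 and 19.0 and 28.1 CPM at P10, WT before KO. For Acat2 the edgeR adjusted p was 0.0955. Its neighbouring paralog Acat3 had a mean of 0.122 CPM. Hmgcs1, which makes HMG-CoA, had a ratio of 1.25 (1.11 to 1.41) at P6 and 0.996 (0.919 to 1.08) at P10. The kinase Mvk had ratios of 0.960 and 0.978, and the decarboxylase Mvd of 0.841 and 1.18, with intervals that excluded 1 for Mvd at P10 alone.

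In the squalene and later arm all 8 measured genes had ratios above 1 at P6 and again at P10, with a median log2 ratio of 0.24 and 0.48. Over all measured genes the median was 0.02 and 0.05. Fdft1, squalene synthase, measured 20.6 (WT) and 27.0 (KO) CPM at P6, and 11.4 CPM and 20.2 CPM at P10. Its WT level at P6 was close to its KO level at P10, so the genotypes separated within an age and not across ages. The ratio was 1.31 (1.10 to 1.57) at P6 and 1.77 (1.51 to 2.08) at P10 (edgeR adjusted p = 0.0990). Fdft1 overlaps Ctsb on the opposite strand, and Cyp51 overlaps Akap9, and the strand setting of the counting is not given in the sources used here. Tm7sf2, with a mean of 6.31 CPM, overlaps Vps51 on the same strand, which had a mean of 13.3 CPM. The part of this overlap in the counts of Tm7sf2 was not tested. Msmo1, a methylsterol oxidase, measured 34.9 (WT) and 49.3 (KO) CPM at P6, and 27.7 CPM and 38.7 CPM at P10. Here too each age had the KO library above the WT library (edgeR adjusted p = 0.0741). The epoxidase Sqle had ratios of 1.33 (1.10 to 1.62) and 1.46 (1.25 to 1.71), and the demethylase Cyp51 of 1.19 (1.01 to 1.41) and 1.39 (1.24 to 1.56). Neither was called for genotype (edgeR adjusted p = 0.132 for Sqle and 0.180 for Cyp51). The isomerase Ebp had 1.08 (0.958 to 1.22) at P6 and 1.49 (1.36 to 1.63) at P10. Nsdhl, Sc5d and the last enzyme Dhcr7 had ratios of 1.04 to 1.17 at the 2 ages, with intervals that all held 1. Under the minimum, Hsd17b7 had a ratio of 1.96 (1.24 to 3.13) at P6 and 0.986 (0.742 to 1.31) at P10, Tm7sf2 had 0.811 and 0.739, and Lss had 1.39 and 0.925.

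Of the regulators, Insig1 measured 27.9 (WT) and 40.0 (KO) CPM at P6, and 43.3 CPM and 49.6 CPM at P10. Its ratios were 1.43 (1.23 to 1.66) and 1.14 (1.05 to 1.25), and the KO library at P6 lay below the WT library at P10. Insig1 was not called for genotype (edgeR adjusted p = 0.211). Srebf1, also not called, had ratios of 1.37 (1.07 to 1.74) and 1.35 (1.15 to 1.58), with an edgeR adjusted p of 0.172. Srebf2 had 1.03 (0.851 to 1.24) and 0.929 (0.831 to 1.04). In the fatty acid arm outside Fasn, the citrate lyase Acly had 1.03 and 1.06, the elongase Elovl6 had 0.775 and 1.03, Scd2 had 0.794 (0.704 to 0.896) and 1.01 (0.950 to 1.08), and the carboxylase Acaca, under the minimum, had 0.951 and 1.14. The sterol exporter Abca1 was lower in KO within each age, with 0.821 (0.748 to 0.900) and 0.921 (0.858 to 0.989). The genotype test did not call Abca1 (edgeR adjusted p = 0.260). Its WT level at P10, 73.1 CPM, lay below its KO level at P6, 80.2 CPM. Abcg1 had ratios of 1.01 and 1.18. Stard4, a carrier of sterol between membranes, had 0.992 and 1.19. Scd1 rested on 2 to 26 UMIs per library, with a ratio of 0.773 (0.0645 to 6.75) at P6 and 0.443 (0.209 to 0.893) at P10. Its log2 ratio at P10, -1.08, turned to 0.23 without cells carrying markers of another type.

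At a fold of 1.5, 1 measured member was higher at P6 (Idi1), against 6.16% of measured genes, and 1 at P10 (Fdft1), against 8.93%. None was lower at P6 or P10, against 3.43% and 5.33%. Counting intervals lay above 1 in 10 of the 23 at P6, against 26.8% of measured genes, and in 13 at P10, against 39.1%. They lay below 1 in 3 at P6 (Abca1, Elovl6 and Scd2), against 22%, and in 1 at P10 (Abca1), against 27.3%. Over the 23 measured members the median log2 ratio was 0.15 at P6 and 0.23 at P10, with 17 and 19 ratios above 1. The plot of KO to WT ratios shows the points at both ages. The counting interval lay above 1 at both ages in 9 of 23 members, namely Acat2, Idi1, Fdps, Fdft1, Sqle, Cyp51, Msmo1, Insig1 and Srebf1, against 20.5% of measured genes, and below 1 at both ages in 1, Abca1, against 13.5%. Without mitotic cells edgeR called 5 members higher and not 1 (Fasn, Fdft1, Fdps, Idi1 and Msmo1, adjusted p = 0.0279 to 0.0393), and the share of all genes called higher rose as well, to 4.81% from 3.05%. Without cells carrying markers of another type edgeR called 2, Fasn (adjusted p = 0.0158) and Idi1 (adjusted p = 0.0344), with 5.59% of all genes called higher.

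**Figure D2:**
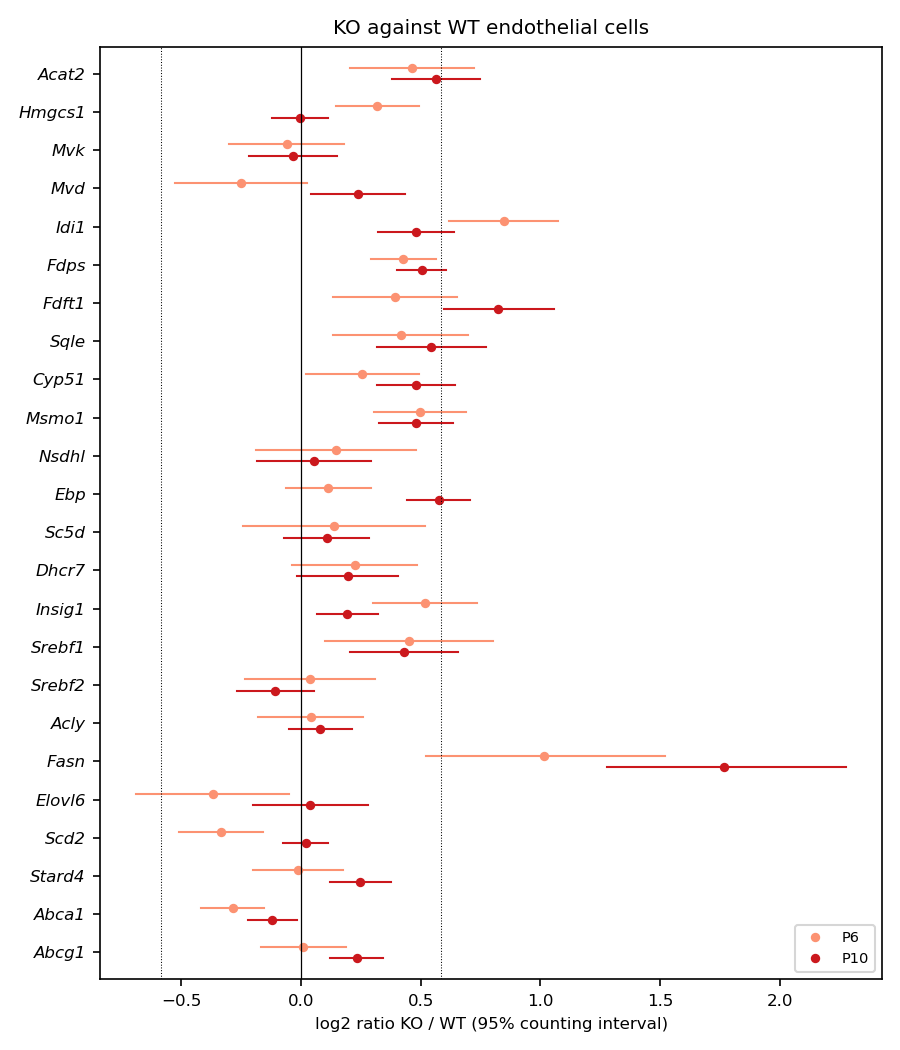
Log2 ratio of KO to WT (x axis) for the 23 measured genes and Fasn at P6 (light) and P10 (dark), with bars for the 95% counting interval and dotted lines at a fold of 1.5. From Fdft1 to Dhcr7 every point lies right of 0, and Fasn lies farthest right at both ages.

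The P9 pair asked how rapamycin changes KO cells relative to vehicle. Abcg1 was higher with rapamycin, while Fasn, Acat2 and Scd2 were lower. With 1 library a group there is no test and no replicate check. Abcg1, which exports sterol to lipoprotein particles, measured 41.0 CPM with vehicle and 81.7 CPM with rapamycin, a ratio of 1.99 (1.86 to 2.14). The 4 libraries of P6 and P10 ran from 50.0 to 66.3 CPM, between both. They were harvested on other days and carry other barcodes, so they are given side by side only. Without mitotic cells the log2 ratio of Abcg1 went from 0.995 to 0.89, and without cells carrying markers of another type to 1.22. Its partner exporter Abca1 measured 146 CPM with vehicle and 138 CPM with rapamycin, a ratio of 0.949 (0.908 to 0.992).

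Fasn measured 14.1 CPM with vehicle, its highest level in any library, and 5.74 CPM with rapamycin, a ratio of 0.407 (0.333 to 0.495). Its log2 ratio of -1.28 was -1.27 without mitotic cells. Scd2 measured 97.8 CPM with vehicle and 63.0 CPM with rapamycin, a ratio of 0.644 (0.605 to 0.685), and its log2 ratio of -0.63 went to -0.73 without mitotic cells. Acat2 measured 18.5 and 11.6 CPM, a ratio of 0.624 (0.539 to 0.721), and its log2 ratio of -0.67 went to -0.52 without mitotic cells, short of a fold of 1.5. Mitotic cells made up 16.8% of the vehicle and 5.45% of the rapamycin library. The values without them also left out 259 and 43 cells under 2000 UMIs in these libraries.

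The other sterol enzymes above the minimum had ratios of 0.744 to 1.26 with rapamycin. In the squalene and later arm 2 of 8 measured genes had a ratio above 1, against 45% of measured genes, Msmo1 with 1.24 (1.12 to 1.37) and Sc5d with 1.26 (1.08 to 1.47). The lowest there was Ebp with 0.744 (0.693 to 0.798), which measured 67.8 CPM with vehicle and 50.4 CPM with rapamycin. Sqle had 0.780 (0.679 to 0.894), Fdft1 0.834 (0.722 to 0.962), Nsdhl 0.832 (0.696 to 0.993), Cyp51 0.885 (0.792 to 0.989) and Dhcr7 0.849 (0.715 to 1.01). In the mevalonate arm Idi1 had 0.828 (0.743 to 0.921) and Fdps 0.812 (0.761 to 0.867), while Hmgcs1 had 1.13 (1.04 to 1.22), Mvd 1.16 and Mvk 0.988. The regulators Insig1, Srebf1 and Srebf2 had ratios of 1.05, 1.08 and 1.08, each with an interval that held 1, as did Acly with 0.960 and Elovl6 with 1.02. Stard4 had 0.881 (0.820 to 0.946).

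At a fold of 1.5, 1 measured member was higher (Abcg1), against 7.91% of measured genes, and 2 were lower (Acat2 and Scd2), against 9.99%. The median log2 ratio of the 23 members was -0.07, and that of all measured genes -0.05. Counting intervals lay above 1 in 4 of 23 (Abcg1, Hmgcs1, Msmo1 and Sc5d), against 32.6% of measured genes, and below 1 in 11, against 42.2%. Of the 9 members whose interval lay above 1 in KO at both ages, 6 had an interval below 1 with rapamycin (Acat2, Cyp51, Fdft1, Fdps, Idi1 and Sqle) and Msmo1 one above 1. That is no more than the background, since 77.8% of the 1598 measured genes above 1 in KO at both ages lay below 1 with rapamycin and 10.1% above. The P9 pair shares no library with the P6 and P10 pairs. Of the 6 genes under the minimum, Hsd17b7 had a ratio of 0.682 (0.538 to 0.860), Acaca 0.756 (0.620 to 0.920), Tm7sf2 0.906 and Lss 1.27. Scd1 had 16 UMIs with vehicle and 91 with rapamycin, a log2 ratio of 3.06 that went to 0.94 without cells carrying markers of another type.

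**Figure D3:**
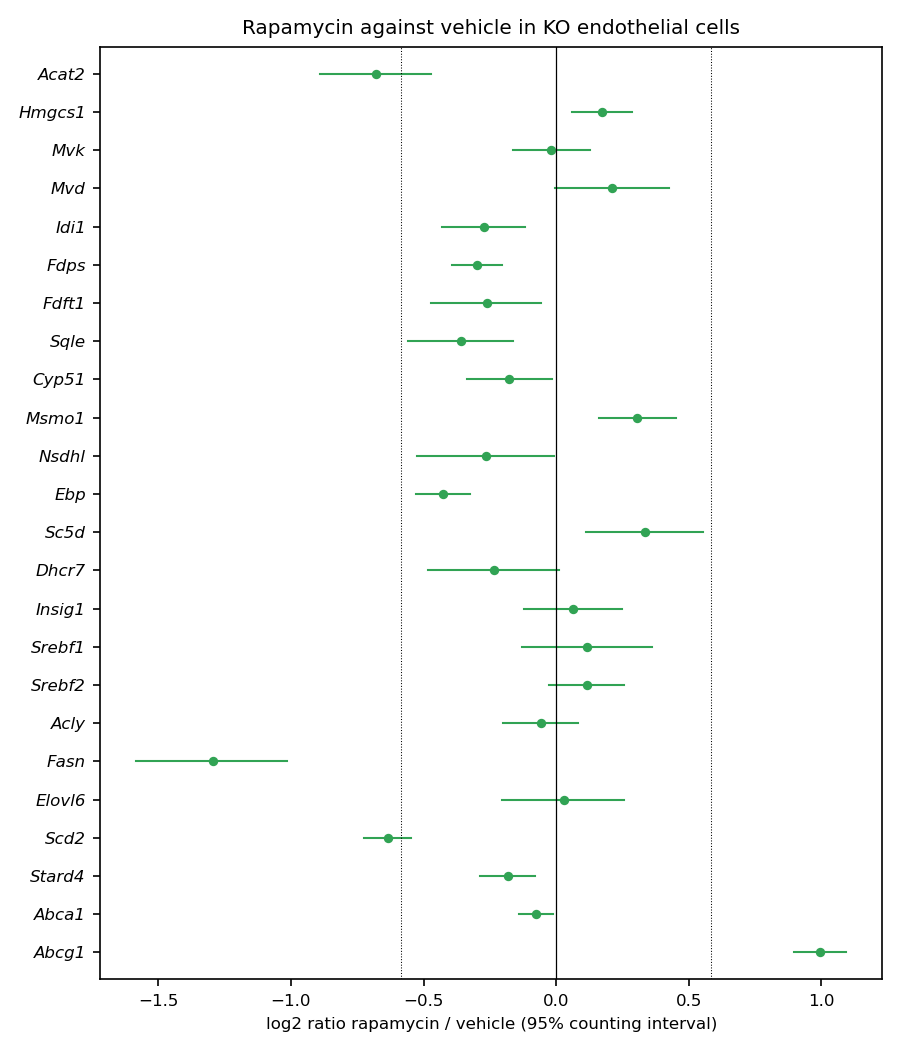
Log2 ratio of rapamycin to vehicle (x axis) in KO endothelial cells at P9 for the 23 measured genes and Fasn, with bars for the 95% counting interval and dotted lines at a fold of 1.5. Abcg1 lies alone beyond the right line, and Acat2, Fasn and Scd2 lie beyond the left line.

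The pairs over age asked how levels differ between P6 and P10 in each genotype. They use the same 4 libraries as the genotype pairs. Sc5d and Scd2 were higher at P10, and edgeR's quasi-likelihood test with genotype as a term called both. Sc5d, the desaturase that sets the ring double bond before Dhcr7 acts, measured 10.6 (WT) and 11.6 (KO) CPM at P6, and 23.0 CPM and 24.8 CPM at P10. The P10 values lay above the P6 values in both genotypes, and the P9 libraries measured 10.7 CPM with vehicle and 13.5 CPM with rapamycin. The log2 fold change was 1.15 (SE 0.15, edgeR adjusted p = 0.0117). Scd2, which puts a double bond into stearate, measured 58.2 (WT) and 46.2 (KO) CPM at P6, and 82.6 CPM and 83.8 CPM at P10. It too was separated by age, with a log2 fold change of 0.72 (SE 0.12, edgeR adjusted p = 0.0261). Of 28 members tested, 2 were higher, against 5.14% of genes, and 0 were lower, against 3.23%, with 12 members and 3720 genes at an unadjusted p under 0.05. Both calls were lost without the genotype term (edgeR adjusted p = 0.146 for Sc5d and 0.245 for Scd2) and, with no genotype term, without any 1 of the 4 libraries. Without mitotic cells edgeR called 5 members higher, adding Acly (adjusted p = 0.0401), Insig1 (adjusted p = 0.0295) and Srebf2 (adjusted p = 0.0419), with 7.66% of all genes called higher.

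At a fold of 1.5 in WT, 2 measured members were higher at P10 (Sc5d and Insig1), against 8.21% of genes, and 1 was lower (Fdft1), against 9.14%. In KO 2 were higher (Sc5d and Scd2), against 6.27%, and 0 were lower, against 6.23%. For Insig1 the ratio of P10 to P6 was 1.55 (1.36 to 1.77) among WT and 1.24 (1.11 to 1.39) among KO libraries, with an edgeR adjusted p of 0.0614. For Fdft1 it was 0.555 (0.461 to 0.667) and 0.749 (0.643 to 0.873), with an edgeR adjusted p of 0.0780. In WT 1 of 8 measured genes of the squalene and later arm had a ratio above 1, Sc5d, against 43.3% of measured genes, and in KO 3 of 8, against 45.2%. Dhcr7, the enzyme after Sc5d, had ratios of 0.741 (0.626 to 0.878) and 0.726 (0.620 to 0.853). Srebf2 had 1.41 (1.22 to 1.64) in WT and 1.28 (1.09 to 1.496) in KO. In WT the counting interval lay above 1 in 7 members, against 27.4% of measured genes, and below 1 in 10, against 39%. In KO it lay above 1 in 7, against 26.3%, and below 1 in 7, against 32.5%. Counting intervals lay above 1 in both genotypes for 6 of 23 members (Abcg1, Acly, Insig1, Sc5d, Scd2 and Srebf2), against 17.9% of measured genes, and below 1 for 7 (Abca1, Dhcr7, Fdft1, Fdps, Msmo1, Mvk and Sqle), against 23.9%. Fasn had 0.442 (0.290 to 0.669) in WT and 0.743 (0.575 to 0.964) in KO.

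Differences between endothelial subsets within the libraries were tested over all 6 libraries, with the library as a block in edgeR. A subset held cells with UMIs of a fixed number of its markers after thinning to 2000 UMIs, which left out 28 to 375 cells per library with fewer UMIs. Each was set against the remaining endothelial cells of the same library, so a cell can fall in several subsets. Markers of mitotic cells included Mki67 and Top2a, of arterial cells Bmx and Gja5, of venous cells Nr2f2 and Ackr1, of tip-like cells Esm1 and Apln, and of capillary cells Slc16a1, Tfrc and the Cre driver gene Mfsd2a, which itself measured 138 CPM with vehicle to 767 CPM in WT at P10. The 2 sets of values in a library come from the same capture, and these p-values rest on how their difference varied between libraries. Abcg1 and Scd2 differed most widely between subsets, as the maps of the 27 tested members and of these 2 genes show. Abcg1 was low in arterial cells and high in tip-like cells, and Scd2 was high in arterial and capillary cells and low in mitotic cells.

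**Figure D4:**
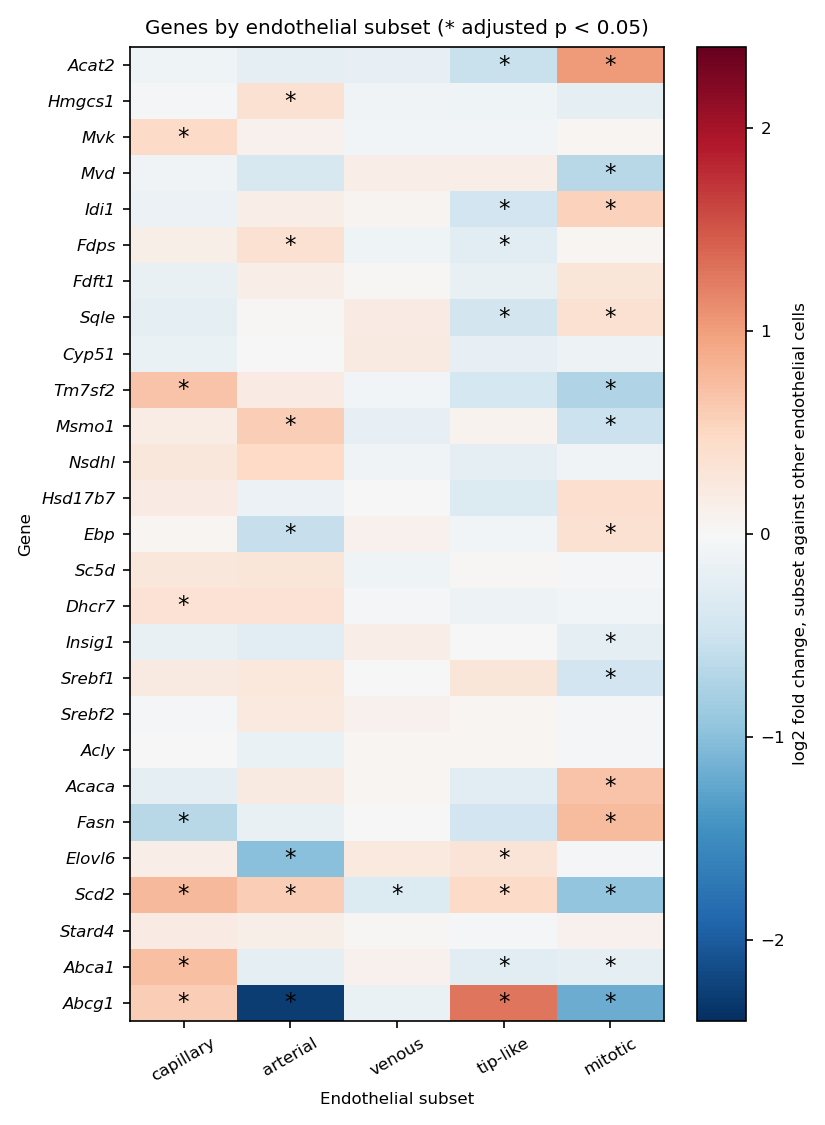
Log2 fold change of each subset against the other endothelial cells of the same libraries (edgeR, colour scale) for the 27 tested members, with stars at an adjusted p under 0.05. Abcg1 holds the deepest blue cell, in arterial cells, and the deepest red one, in tip-like cells.

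Arterial cells numbered 29 to 171 per library. Abcg1 measured 6.83, 17.3, 18.2, 15.9, 12.6 and 9.80 CPM there and 51.2, 50.9, 57.7, 67.9, 41.6 and 84.5 CPM in the other cells, for P6 WT, P6 KO, P10 WT, P10 KO, P9 vehicle and P9 rapamycin in turn. The arterial levels rested on 2, 4, 17, 16, 7 and 8 UMIs in that order. Abcg1 was lower in all 6 libraries, and the ranges did not overlap. The log2 fold change was -2.28 (SE 0.19, edgeR adjusted p = 1.6e-08). Scd2 was higher in arterial cells in all 6 libraries by 0.59 (SE 0.14, edgeR adjusted p = 0.00386), as were Msmo1 by 0.58 (SE 0.15, adjusted p = 0.00625), Hmgcs1 by 0.37 (adjusted p = 0.0306) and Fdps by 0.37 (adjusted p = 0.0110). With rapamycin Scd2 measured 67.3 CPM in arterial and 62.5 CPM in other cells, and with vehicle 249 and 95.1 CPM. Ebp and Elovl6 were lower, by a log2 fold change of -0.55 and -0.9997 (edgeR adjusted p = 0.0252 and 0.0283). Thus 4 of 27 members were higher and 3 lower, against 13.4% and 14.2% of genes. Without KO at P10, 1 member was higher and not 4, with 1117 genes higher and not 1511.

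Tip-like cells, named for markers such as Esm1 and Apln, numbered 289 to 939 per library. Their share of cells ran from 15.4% with vehicle to 34.9% in KO at P6. Whether these cells lead sprouts was not tested. Abcg1 measured 78.5, 75.1, 80.4, 104, 95.2 and 157 CPM in them and 40.5, 37.0, 44.6, 43.7, 30.3 and 53.4 CPM in the others, in the same order of libraries. The lowest tip-like value lay above the highest of the other cells. Its log2 fold change was 1.28 (SE 0.10, edgeR adjusted p = 5.05e-06). The rapamycin library held the highest value in both. Scd2 and Elovl6 were also higher, by 0.46 and 0.30 (edgeR adjusted p = 0.00595 and 0.0341). Lower in edgeR were Acat2 by a log2 fold change of -0.53 (adjusted p = 0.00137), Idi1 by -0.46 (adjusted p = 0.00579), Sqle by -0.43 (adjusted p = 0.0129), Fdps by -0.27 (adjusted p = 0.00364) and Abca1 by -0.26 (adjusted p = 0.0244). Acat2, Idi1 and Fdps were lower in 6 of 6 libraries. That made 3 higher and 5 lower of 27, against 17% and 15.4% of genes. Without KO at P10, 3 members were lower and not 5, with 1389 genes lower and not 1809.

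Capillary cells made up 613 to 2994 cells per library. Their share of cells ran from 59.0% with vehicle to 94.6% in WT at P10, and was 91.6% in WT at P6. The other cells thus numbered 112 in WT at P6 and 171 in WT at P10. In WT at P10 these held 21 UMIs of Abcg1 and 49 of Scd2. Abca1 was higher in capillary cells in all 6 libraries, with a log2 fold change of 0.73 (SE 0.08, edgeR adjusted p = 4.36e-05). So were Scd2 with 0.78 (SE 0.09, edgeR adjusted p = 0.000102) and Abcg1 with 0.59 (SE 0.12, edgeR adjusted p = 0.00375). Scd2 measured 57.8, 53.7, 82.8, 91.8, 128 and 69.1 CPM in capillary cells and 51.5, 27.1, 45.0, 56.7, 59.6 and 41.8 CPM in the others. The kinase Mvk (0.46, edgeR adjusted p = 0.00580), Tm7sf2 (0.68, adjusted p = 0.0319) and Dhcr7 (0.35, adjusted p = 0.0187) were higher as well, and Fasn was lower (-0.66, adjusted p = 0.00491). Of 27 members 6 were higher, against 12% of genes, and 1 lower, against 13.4%. Venous cells, 192 to 995 per library, had 0 members higher, against 5.03% of genes. At an unadjusted edgeR p under 0.05 in either direction were 8 members and 2630 of 11679 genes. DESeq2 also called 0 members higher there, with 375 genes higher. Scd2 alone was lower, in 6 of 6 libraries (-0.33, SE 0.04, edgeR adjusted p = 0.000173), against 3.97% of genes.

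Mitotic cells, 72 to 589 per library, had higher levels of Acat2 (log2 fold change 1.03, SE 0.09, edgeR adjusted p = 1.22e-06), Fasn (0.75, adjusted p = 0.00240), Acaca (0.69, adjusted p = 0.0101), Idi1 (0.55, adjusted p = 0.000388), Sqle (0.36, adjusted p = 0.0174) and Ebp (0.36, adjusted p = 0.00206). These 6 genes were higher in 6 of 6 libraries. Acat2 measured 39.5, 49.8, 46.2, 45.7, 29.7 and 17.6 CPM in mitotic cells and 17.8, 23.9, 18.0, 26.4, 15.7 and 10.9 CPM in the others. The rapamycin library was the lowest in both. Lower in mitotic cells were Abcg1 (-1.19, SE 0.10, edgeR adjusted p = 4.31e-07), Scd2 (-0.94, adjusted p = 2.96e-06), Tm7sf2 (-0.73), Mvd (-0.66), Msmo1 (-0.52), Srebf1 (-0.47), Abca1 (-0.24) and Insig1 (-0.24). In all, 6 of 27 were higher, against 21.5% of genes, and 8 lower, against 21.6%. These counts lie near the shares over all genes. Without WT at P10, 5 members were lower and not 8, with 2464 genes lower and not 2565. Mitotic cells held more UMIs per cell, with a median of 8246 to 19839 against 5313 to 11485 in the others.

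**Figure D5:**
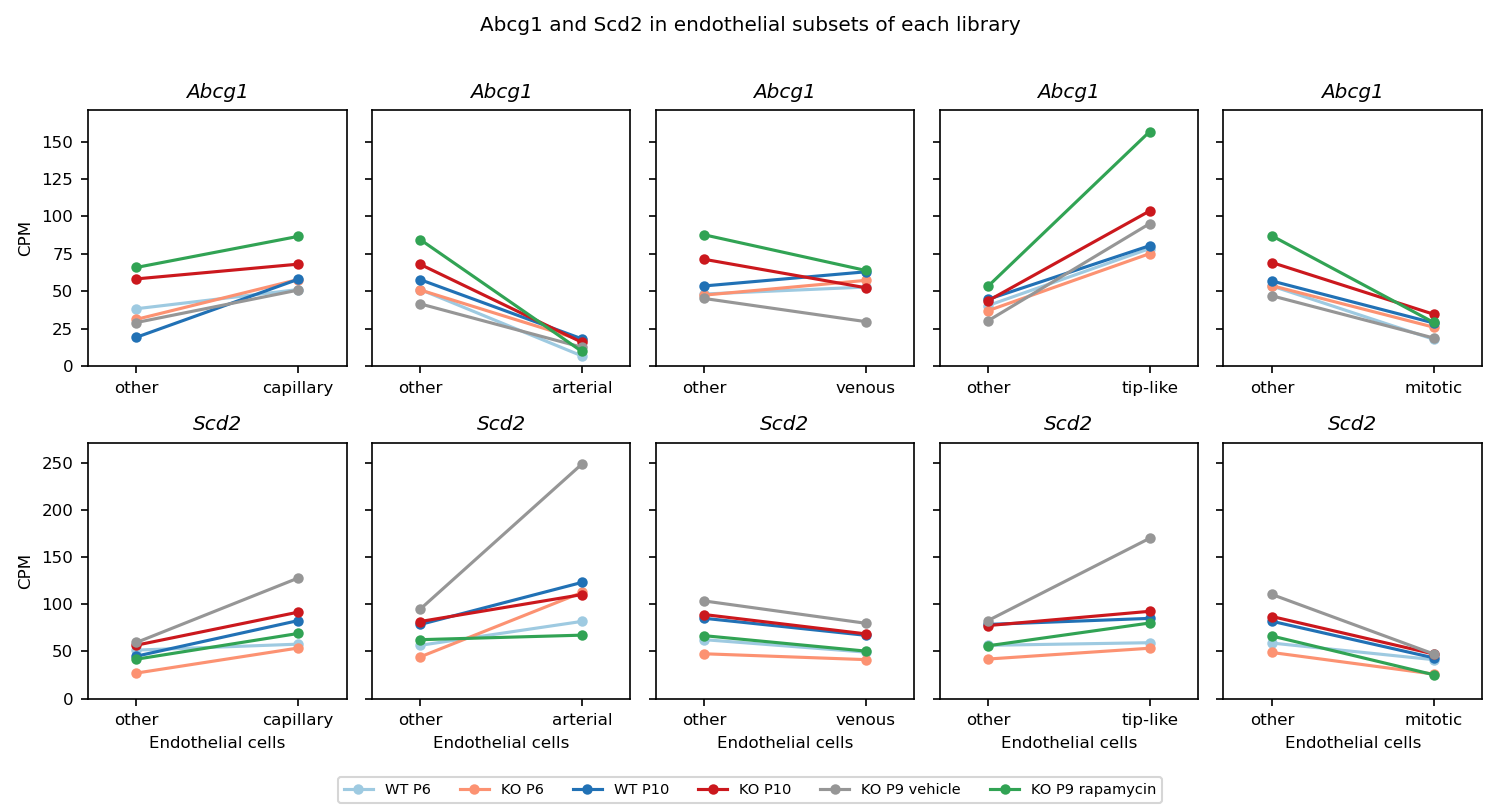
Level of Abcg1 (top) and Scd2 (bottom) in CPM in each subset (right point) and the other endothelial cells of the same library (left point), 1 line per library. All 6 Abcg1 lines fall in arterial and mitotic cells and climb in tip-like and capillary cells, and all 6 Scd2 lines fall in mitotic and venous cells.

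Barcodes that passed the filters with a UMI of none of the 6 endothelial markers numbered 13 to 375 per library and held 41157 to 443402 UMIs. Their median was 839 to 4428 UMIs per library. Several neuron markers were held by 310 with vehicle, 99 with rapamycin, 34 in KO and 31 in WT at P6, and 2 in each P10 library. In all these barcodes Acat2, Idi1, Fdps, Sqle, Cyp51, Msmo1 and Insig1 were higher than in endothelial cells. Their counting intervals lay above 1 in 6 of 6 libraries. The same count over all genes was not made, so whether this is particular to the set was not tested. Idi1 measured 162.6 to 493.8 CPM there and 22.8 to 41.3 CPM in endothelial cells. The exporters differed from these. Abcg1 had 0 to 2 UMIs per library outside endothelium, and Abca1 0 to 7, with counting intervals below 1 in 4 of 6 libraries each. In KO at P10 Abca1 measured 138 CPM outside and 67.3 CPM inside endothelium, a ratio of 2.06 (0.825 to 4.25). Ebp and Stard4 had intervals that held 1 in every library. How much free RNA from such cells adds to the endothelial levels was not tested.

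Other genes of the path were taken from 3 lists. In the edgeR genotype test Tmem97, a sterol-regulated membrane protein of the sterol list, was higher in KO. It measured 17.3 (WT) and 33.3 (KO) CPM at P6, and 10.0 CPM and 18.4 CPM at P10, with both KO libraries above both WT libraries (log2 fold change 0.88, SE 0.14, edgeR adjusted p = 0.0267). Tmem97 was lower with age (-0.78, edgeR adjusted p = 0.0292). Of 18 further fatty acid genes tested, the malic enzyme Me1 (1.71, edgeR adjusted p = 0.0389) and the acyl-CoA synthetase Acsl5 (0.74, edgeR adjusted p = 0.0234) were higher in KO and the synthetase Acsl3 (-0.79, edgeR adjusted p = 0.0433) and the elongase Elovl7 (-0.88, edgeR adjusted p = 0.0374) lower. That made 2 higher and 2 lower of 18, against 3.05% and 1.69% of all genes. Acsl3 measured 44.7 (WT) and 31.8 (KO) CPM at P6, and 49.7 CPM and 24.9 CPM at P10. At P9 it measured 23.4 CPM with vehicle and 49.7 CPM with rapamycin. Of 17 genes of lipid uptake, storage and efflux tested, 0 were higher and 2 lower in KO, against 3.05% and 1.69% of all genes. The lower ones were the fatty acid carrier Fabp5 (-0.85, SE 0.17, edgeR adjusted p = 0.0499) and the lipoprotein Apoe (-1.65, SE 0.21, edgeR adjusted p = 0.0158). Pericyte markers summed to 1063 (WT) and 1062 (KO) CPM at P6, and 997 and 519 CPM at P10. Astrocyte markers summed to 134 and 120 CPM, and 192 and 130 CPM. Whether RNA of such cells adds to the Apoe levels was not tested. Fabp5 and the lysosomal lipase Lipa were lower with age (edgeR adjusted p = 0.00930 and 0.0332), against 3.23% of all genes.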

How the data were processed

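The authors deposited, for each of the 6 libraries, a gene-by-barcode matrix of UMI counts, whole numbers with no normalization. Per the submitters' processing notes they used Cell Ranger 6.0.1 and mm10, and per the labels' protocols tissue was dissociated, its cells were sorted, and 10x 3′ v2 chemistry was used. No source used here gives the sort gate, the strand setting or a doublet step, and no doublet caller was run.

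Members and lists were chosen with earlier results of these data known. Barcodes passed with at least 500 genes, at most 10% mitochondrial UMIs and at least 3 of 6 endothelial markers, and their counts were summed per library. Libraries held 1214 to 6045 barcodes and 10807651 to 40197132 UMIs. Pair ratios carry exact conditional binomial 95% intervals and, with 1 library a group, no test. A log2 ratio used a prior count of 2, and a gene counted as measured at a mean of 10 CPM. edgeR 4.0.16 (R 4.3.3) fitted quasi-likelihood models to the summed counts (TMM scaling, low-count filter, Benjamini-Hochberg adjustment over all genes, threshold 0.05), with genotype and age as terms over 4 libraries, or subset and library over 6. Subsets were mitotic, arterial, venous and capillary cells with at least 3 markers and tip-like cells with at least 2, after thinning each cell to 2000 UMIs, which left out cells with fewer. DESeq2 1.42.0 was an alternative. Runs without mitotic cells also dropped endothelial cells under 2000 UMIs. The fits were also run on counts simulated with the fitted spread. Such a run cannot show whether that spread is well estimated from 4 libraries. All members are named, and from 3 further lists at most 6 genes a comparison past the edgeR threshold or a fold of 2; Me1 and Acsl5 were named beyond this rule, after their values were seen, to complete a count. Promoter letters came from RefSeq on GRCm38.p6. Some results of the further sterol list are not reported here.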

Additional observations from a re-analysis of the deposited data

How the results depend on the processing

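In the 4-library tests the number of calls depended strongly on the settings. For genotype, 402 genes were higher and 222 lower; without a low-count filter these were 1197 and 813, without the age term 1 and 0, without mitotic cells 630 and 405, and without cells carrying markers of another type 690 and 466, while DESeq2 called 141 lower. Leaving out 1 library, with no age term, gave 2 to 23 higher (4, 12, 2 and 23 without WT P6, KO P6, WT P10 and KO P10) and 0 to 2 lower. Members higher were 1 and became 6 with no filter, 5 without mitotic cells, 2 without cells carrying other markers, and 0 with DESeq2, with 4 endothelial markers, without the age term and without each of the libraries. For age, 677 genes were higher and 425 lower; DESeq2 gave 377 and 249, no filter 1542 and 1096, and no genotype term 2 and 1. Without mitotic cells 1003 were higher and 700 lower, and without cells carrying other markers 847 and 667. Leaving out 1 library gave 0 to 97 higher (0, 0, 11 and 97) and 0 to 41 lower (0, 1, 3 and 41). Members higher with age were 2 and became 5 with no filter, 5 without mitotic cells, 0 without the genotype term and 0 without each of the libraries; members lower were 0 and became 2 with no filter and 1 without cells carrying other markers. At a fold of 2 the members higher were 0 at P6, 0 at P10 and 0 with rapamycin. By age they were 1 in WT and 1 in KO. Those lower were 0 with rapamycin and 0 in WT by age. The shares of all genes at a fold of 2 were not counted. Without the library block, subset members higher and lower were 1 and 2 in mitotic, 0 and 1 in arterial and 0 and 0 in venous cells. They were 0 and 0 in capillary and 1 and 0 in tip-like cells. Calls over all genes fell too, to 917 and 373 in mitotic, 555 and 457 in arterial and 0 and 0 in venous cells. In capillary cells they were 31 and 33, and in tip-like cells 117 and 80. Leaving out 1 library gave 5 to 8 members lower in mitotic and 1 to 5 higher in arterial cells. It gave 0 to 1 higher and 1 to 2 lower in venous, and 3 to 5 lower in tip-like cells. Genes lower in mitotic cells were then 2167 to 2665, and genes higher in arterial cells 1117 to 1466. In venous cells 330 to 552 genes were higher and 235 to 438 lower, and in tip-like cells 1372 to 1765 were lower. With RLE scaling 1 member was higher in venous cells, and with 1 marker fewer in the gate 3 were higher and 2 lower there. Over all genes RLE scaling gave 638 higher there, and 1 marker fewer gave 1006 higher and 653 lower. The cause of these changes was not tested. Scd1 in KO against WT at P10 turned from -1.08 to 0.23 without cells carrying other markers. The median log2 ratios stayed within the counting range of their members under every setting run, between 0.08 and 0.27 at P6 and between 0.17 and 0.24 at P10. Removing shared barcodes and, in edgeR, cells carrying other markers were alternatives chosen after seeing the data. The 6 genes under the 10 CPM minimum (Lss, Scd1, Tm7sf2, Hsd17b7, Acaca and Fasn) held under 100 UMIs in at least 1 library and are limited by depth. No paired analysis between libraries was possible because every group is 1 library and the labels give no replicate number that pairs libraries. The subset tests paired values within a library.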
